A study of Mus musculus with 34 samples.

Results

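The 9 genes described here are those of the MYC network that were chosen by name, namely Myc, Mycn, Max, Mlx, Mxd1, Mxd4, Mnt and Mga, together with Myb. All 9 had a row in the count table of 13108 gene rows, and all 9 passed the filter on low counts in every comparison. Their RNA was measured in HSCs sorted as LSK CD48-CD150+ cells from the bone marrow of C57BL/6 mice. Ythdf2 CTL mice were Ythdf2 fl/fl, and Ythdf2 CKO mice were Ythdf2 fl/fl;Vav-iCre, in which a Cre active in hematopoietic cells removes exon 2 of Ythdf2. In both genotypes the floxed allele also carries GFP after the start codon of Ythdf2. Young mice (8 to 12 wk) numbered 4 CTL and 4 CKO, and aged mice (1 yr) numbered 4 CTL and 5 CKO. Each mouse gave 2 libraries of 100 cells, made with SMART-Seq2, and their counts were added, so that n is the number of mice. The comparisons address whether RNA of these genes differed with the loss of YTHDF2 at each age, and with age in each genotype.

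MYC and MYCN are basic helix-loop-helix leucine zipper proteins that bind DNA as heterodimers with MAX, mostly at E-box sequences, and drive genes of ribosome biogenesis, metabolism and cell growth. MXD1, MXD4 and MNT compete for MAX and recruit SIN3 corepressors, MLX pairs with MXD and MNT proteins and with the glucose-sensing MondoA and ChREBP, and MGA joins MAX in a repressive Polycomb complex. In the bone marrow MYC is known for promoting the exit of HSCs from the niche and their differentiation, and MYB, a separate DNA-binding factor that works with CBP and p300, is needed for definitive HSCs. YTHDF2 binds m6A-modified mRNA and promotes its decay, and Myc mRNA is known to carry m6A.

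The E-box CACGTG is shown here because it is the sequence that MYC and MAX are known to bind, and several genes of the network hold it in their own promoters. Of the 9 genes, 8 were matched in a RefSeq table of promoters (GRCm38.p6; 250 bases before to 50 after the gene start), and 4 of these 8 held CACGTG. It was found in 7.15% of all 32851 promoters of the table and in 10.1% of the 12427 promoters of genes tested here. The sequence reads the same on both strands and was searched with no other motif. A match describes the letters and not a bound site. The 4 windows below are 30 bases each, 5′ to 3′ on the strand of the gene, with CACGTG in capitals.
Max, minus strand, chr12:76962234-76962263: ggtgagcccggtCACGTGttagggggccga
Mxd4, minus strand, chr5:34187912-34187941: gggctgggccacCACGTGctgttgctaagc
Mnt, plus strand, chr11:74830789-74830818: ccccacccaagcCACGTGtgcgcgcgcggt
Mlx, plus strand, chr11:101087238-101087267: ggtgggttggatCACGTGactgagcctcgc
The first base of the motif lay at -3 from the RefSeq gene start in Max, -40 in Mlx, -123 in Mnt and -219 in Mxd4. These RefSeq starts are not the same bases as the GENCODE positions given below. The promoters of Mycn, Mxd1, Mga and Myb held no CACGTG in this window.

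All 9 genes are protein-coding in GENCODE M21 (GRCm38, the build the authors aligned to). Myc lies at chr15:61985391-61990374, Mycn at chr12:12936093-12941914, Max at chr12:76937269-76962201, Mlx at chr11:101087277-101092207, Mxd1 at chr6:86647042-86669161, Mxd4 at chr5:34173883-34187720, Mnt at chr11:74830920-74845725, Mga at chr2:119897228-119969581 and Myb at chr10:21124935-21160984. Exons of Mlx share 385 bases with Psmc3ip on the opposite strand, those of Mxd4 share 514 bases with the antisense gene Gm42846 and those of Myb share 559 bases with the antisense gene Gm26577. Whether counting used strand is not given in the sources used here, and an oligo-dT library of this kind does not mark it, so reads from these shared stretches cannot be told apart. GGACT, a core of the m6A consensus, occurred 6 times in the 2338 bases of the longest protein-coding Myc transcript, or 2.57 per kb, read on the transcript's strand. Of 11830 protein-coding genes tested, 95.6% had a lower density, and their median was 1.04 per kb. Mlx (0.51 per kb) and Mga (0.57 per kb) were the sparsest of the 9. These are counts of letters, and m6A itself is not analysed here.

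The 33 libraries used held between 1859784 and 7784627 counts (median 3038180), and a mouse between 2218618 and 10125624. One library, the second of aged CTL 99, had 187034 counts and was left out. A count of 3, taken as the detection floor, corresponded to between 0.292 and 1.24 CPM (counts scaled by TMM to a common library size) in a mouse, and each of the 9 genes was above it in every mouse. PCR reads without molecular identifiers are not independent molecules, so this floor covers counting error only. HSC markers were present in every group, with summed levels of the 10 genes from 1284 to 1546 CPM in young CTL, 1682 to 2041 CPM in young CKO, 1318 to 2628 CPM in aged CTL and 1729 to 2290 CPM in aged CKO mice. The young genotypes did not overlap in this sum, and 1 of the 10 genes, Ly6a, was called higher in young CKO mice (log2 fold change 1.202, SE 0.19, edgeR adjusted p = 0.0201). Of the 2 B cell markers in the table, Ms4a1 was at 0 in every mouse and Cd79a reached 3 counts, and Cd4, the 1 T cell marker, reached 19 counts. The summed levels of 8 myeloid markers ran from 565 to 1257 CPM, mostly Lyz2 and Prtn3, while Elane reached 17 counts, and those of 5 erythroid markers ran from 50.1 to 134 CPM. In bulk samples, fewer cells of a kind and less RNA per cell cannot be told apart.

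Ythdf2 RNA was read first as a check of the labels. In young mice it was 50.3, 55.6, 57.6 and 60.3 CPM in the 4 CKO mice and 93.4, 97.2, 118 and 123 CPM in the 4 CTL mice (log2 fold change -0.95, SE 0.17, edgeR quasi-likelihood adjusted p = 0.0406). In aged mice it was 72.4, 73.8, 75.8, 87.8 and 188 CPM in CKO mice and 70.5, 142, 164 and 179 CPM in CTL mice. The mouse labelled CKO 121 was therefore the highest of the 9 aged mice and the mouse labelled CTL 124 the lowest, and both go against their labels. Differences in aged mice are therefore also given without both mice. Aged Ythdf2 RNA differed by -0.48 on the log2 scale with them (SE 0.33, edgeR adjusted p = 0.661) and by -1.06 without them, the latter a description with no test, since the mice were left out for their Ythdf2 levels. Mouse CKO 121 also had the lowest summed level of 6 megakaryocyte markers among the aged CKO mice (568 CPM, against 1732 to 2085 CPM in the other 4). For these markers CTL 124 did not go against its label, with 554 CPM against 390 to 612 CPM in the other aged CTL mice.

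Myc was the most abundant of the 9 genes when levels were set per length of exon (CPM per kb of GENCODE exon), with a mean of 182 CPM per kb over the 17 mice, above 97.1% of 12320 genes. Myb (43.4 CPM per kb) and Mycn (42.0) followed, then Mlx (34.8) and Max (28.5), which are the obligate partners. Mga (6.28), Mxd4 (3.29), Mxd1 (2.94) and Mnt (2.18) were the lowest. The summed level per kb of Mxd1, Mxd4, Mnt and Mga was between 2.85% and 18.3% of that of Myc and Mycn, the highest in aged CTL 124. Not every step of this order holds in each mouse. Myc exceeded Myb in 17 of 17 mice, Max exceeded Mga in 17 of 17, Mga exceeded Mxd4 in 16 of 17 and Mlx exceeded Max in 14 of 17. The neighbours Myb and Mycn (11 of 17), Mycn and Mlx (10 of 17), Mxd4 and Mxd1 (10 of 17), and Mxd1 and Mnt (11 of 17) changed places in many mice. On the same scale, Mycn made up between 12.7% and 31.2% of the sum of Myc and Mycn.

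**Figure D1:**
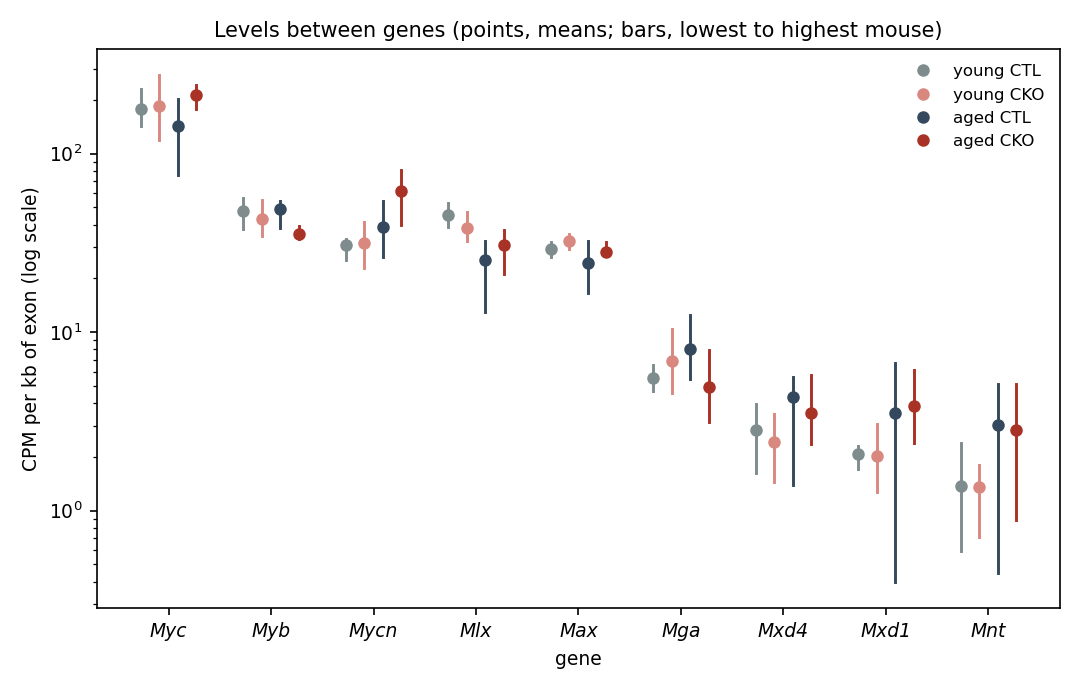
Level of each gene as CPM per kb of exon on a log axis, by age and genotype, with points for means of mice and bars from the lowest to the highest mouse. Myc stands highest at 182 CPM per kb over all mice, and Mxd4, Mxd1 and Mnt lie lowest between 2.18 and 3.29.

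In young mice, loss of YTHDF2 was not accompanied by a called change in any of the 9 genes. edgeR's quasi-likelihood test called 0 of 9, against 20 of 11526 genes (0.174%), and 0 of 9 reached an unadjusted p under 0.05, against 7.06% of genes. DESeq2, limma and the likelihood ratio test also called 0 of 9, with 88, 25 and 67 calls among all genes. The CKO and CTL mice overlapped for all 9 genes, where 4.83% of genes did not overlap. Log2 fold changes ran from -0.23 (Mlx) to 0.33 (Mga), with 4 genes higher and 5 lower in CKO. The range of 2 standard errors either side ran from -0.16 to 0.46 for Max, from -0.49 to 0.18 for Myb and from -0.36 to 0.47 for Mycn. A log2 change of 1 in either direction lay outside this range for 8 of 9 genes, and inside it for Mnt (-1.121 to 1.102), the lowest of the 9 in level.

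Myc, the transcript with the densest GGACT letters of the 9, was 388, 417, 505 and 622 CPM in the young CTL mice and 326, 437, 490 and 753 CPM in the young CKO mice. Its means were 483 ± 105 and 502 ± 181 CPM (SD, n = 4 each), a log2 difference of 0.06 with an SE of 0.22. The CKO mice held both the lowest and the highest of the 8 values. Mycn, a paralog that acts together with Myc in HSCs, ran from 84.2 to 110 CPM in CTL and from 75.0 to 137 CPM in CKO mice.

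Max, the shared partner, was 94.6 to 115 CPM in young CTL and 105 to 127 CPM in young CKO mice. Mlx was 77.2 to 105 CPM in CTL and 64.9 to 94.7 CPM in CKO mice (log2 fold change -0.23, SE 0.18, edgeR adjusted p = 0.893). Psmc3ip, which overlaps it on the other strand, differed by -0.51 (SE 0.19, edgeR adjusted p = 0.539) in the same mice. Mga was 71.9 to 101 CPM in CTL and 69.9 to 160 CPM in CKO mice, where mice 1 and 3 stood above all CTL mice and mouse 3 was the highest. Without CKO 3 the log2 difference for Mga was 0.07 in place of 0.33. Among the low genes, Mxd1 (9.01 to 21.6 CPM), Mxd4 (12.3 to 33.4 CPM) and Mnt (2.76 to 11.02 CPM) overlapped between the genotypes, these being the ranges over all 8 young mice. Myb was 339, 411, 461 and 502 CPM in CTL and 308, 332, 410 and 489 CPM in CKO mice, with overlapping ranges.

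**Figure D2:**
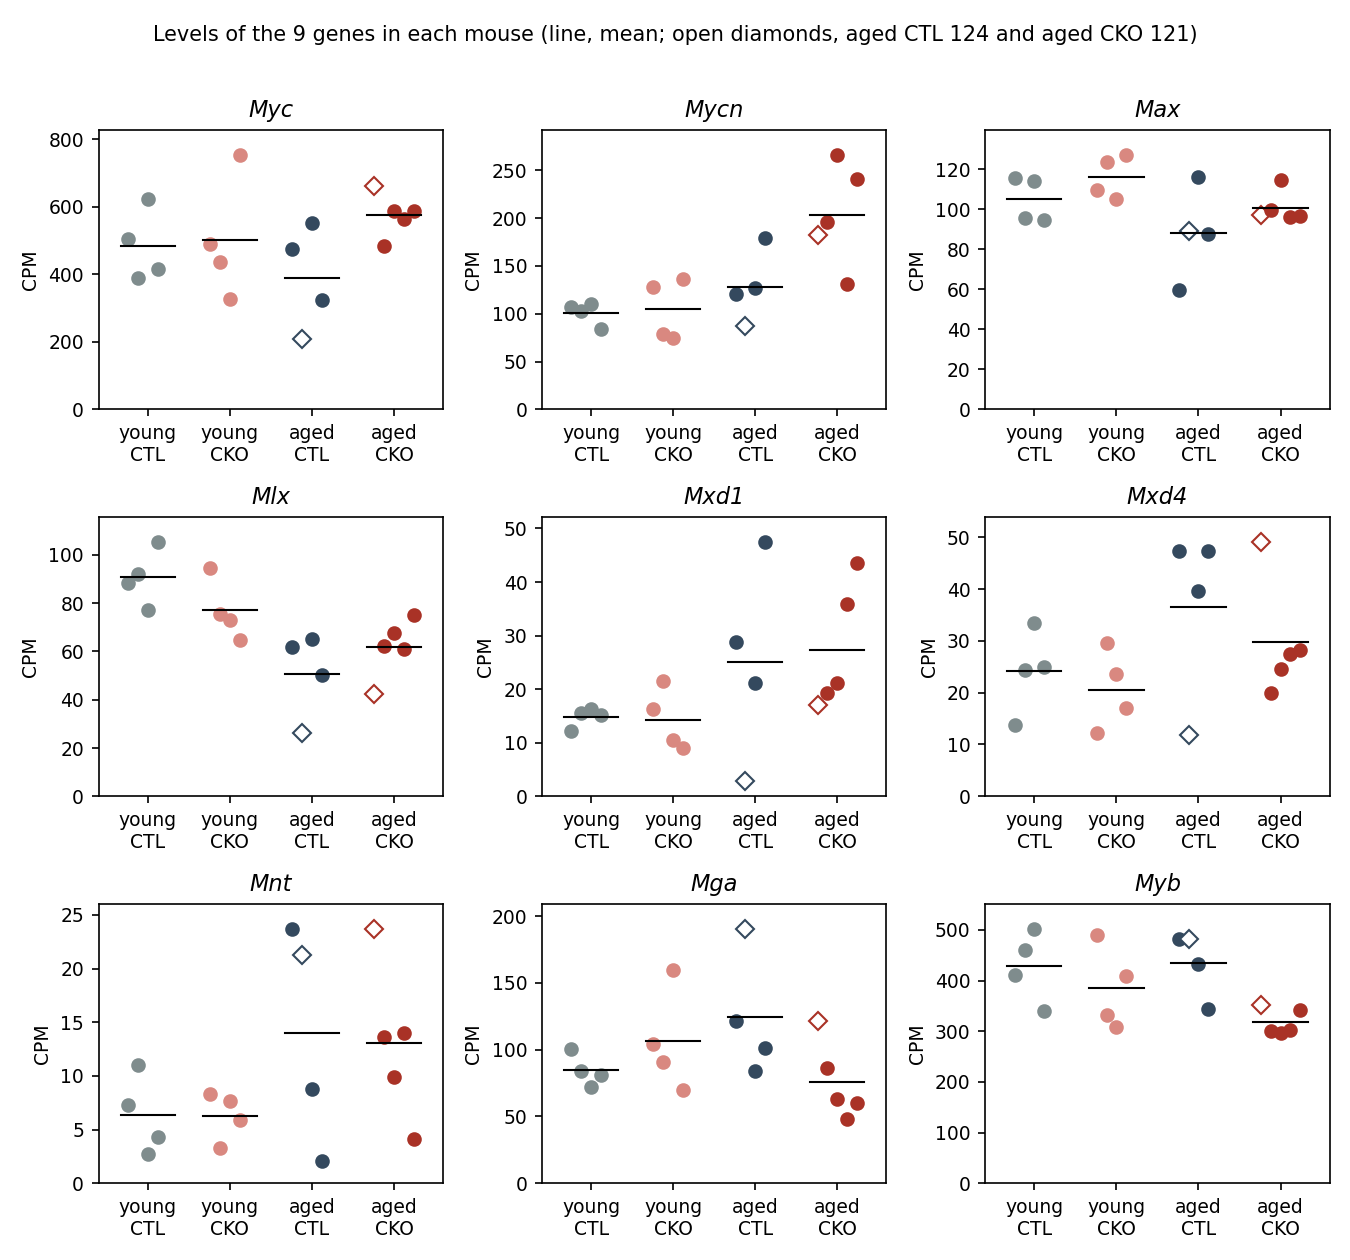
CPM of each gene in each mouse by group, with a line at the group mean and open diamonds for aged CTL 124 and aged CKO 121, whose Ythdf2 levels go against their labels. The young genotypes overlap for all 9 genes, and aged CTL 124 is the lowest of the 17 mice for Myc at 207 CPM.

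In aged mice the differences were larger, but none passed the adjusted threshold. edgeR's quasi-likelihood test called 0 of 9 and 0 of 11961 genes (0%), while DESeq2, limma and the likelihood ratio test over mice also called 0 of 9, with 112, 0 and 76 calls among all genes. At an unadjusted p under 0.05 there were 4 of 9, against 10.1% of all genes. Myc and Mycn were the higher ones in CKO, and Mga and Myb the lower ones. No group of aged mice was apart for any of the 9 genes, where 3.46% of genes were. Under a likelihood ratio test, the kind of test the study used, run here with every library as a replicate, Mycn (adjusted p = 0.0364), Mga (adjusted p = 0.0400) and Myb (adjusted p = 0.00765) were called in edgeR, against 420 of 11261 genes (3.73%). That test counts both libraries of a mouse as independent.

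Myc was 207, 326, 476 and 553 CPM in aged CTL mice and 483, 565, 588, 588 and 663 CPM in aged CKO mice. Its means were 390 ± 155 (SD, n = 4) and 577 ± 64.6 CPM (SD, n = 5), a log2 difference of 0.57 (SE 0.24, edgeR adjusted p = 0.448). The lowest value is the mouse labelled CTL 124 and the highest the mouse labelled CKO 121. Without both, the means were 452 ± 116 (SD, n = 3) and 556 ± 49.9 CPM (SD, n = 4), and the difference fell to 0.30 (SE 0.18, edgeR adjusted p = 0.579). Leaving out CTL 124 alone gave 0.35. Both libraries of CTL 124 were low, at 195 and 212 CPM.

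Mycn was 87.3, 121, 126 and 179 CPM in aged CTL mice and 131, 182, 196, 241 and 266 CPM in aged CKO mice, so that 4 of 5 CKO mice stood above every CTL mouse. The log2 difference was 0.67 (SE 0.25, edgeR adjusted p = 0.398) with all mice and 0.55 (SE 0.24, edgeR adjusted p = 0.406) without CKO 121 and CTL 124. Libraries of a mouse agreed less closely for Mycn than for Myc, with a median absolute log2 ratio between them of 0.54 against 0.27 over 16 mice.

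Mga, the largest of these genes and a repressor that also joins the PRC1.6 complex, went the other way. It was 84.2, 101, 121 and 190 CPM in aged CTL mice and 48.1, 60.1, 62.7, 86.0 and 122 CPM in aged CKO mice. The highest value in each genotype belongs to the mouse whose Ythdf2 goes against its label. The log2 difference was -0.71 (SE 0.29, edgeR adjusted p = 0.435), and without both mice it was -0.67 (SE 0.23, edgeR adjusted p = 0.257). One CKO mouse still lay within the CTL range.

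Myb was the least variable of the 9 genes over all 17 mice, with the highest value 1.69 times the lowest. It was 343, 432, 482 and 483 CPM in aged CTL mice and 297, 301, 303, 341 and 352 CPM in aged CKO mice. All aged CKO mice but the mouse labelled CKO 121 lay below every aged CTL mouse. The log2 difference was -0.44 (SE 0.15, edgeR adjusted p = 0.395) and -0.43 (SE 0.16, edgeR adjusted p = 0.311) without the 2 mice, when the groups no longer overlapped. They were then barely apart, with CKO 94 at 341 CPM and CTL 99 at 343 CPM. The Myb value of CTL 99 came from 831 counts, since its second library was left out. Myb was also the gene on which the libraries of a mouse agreed best, with a median absolute log2 ratio of 0.22, against 0.50 for the median gene.

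Once CKO 121 and CTL 124 were left out, edgeR called 40 of 12005 genes (0.333%) and again 0 of 9, with 4 of 9 at an unadjusted p under 0.05 (11.6% of all genes). These 4 were Mycn, Mxd4, Mga and Myb. The groups were apart for 2 of 9, Mxd4 and Myb, both lower in CKO, against 11.5% of all genes. For Myb the nearest mice of the 2 genotypes stood at 341 and 343 CPM. Mxd4, a MAX partner associated with quiescent and differentiating cells, was 39.6, 47.3 and 47.5 CPM in the 3 remaining CTL mice and 19.9, 24.6, 27.6 and 28.2 CPM in the 4 remaining CKO mice. The log2 difference for Mxd4 was -0.84 (SE 0.26, edgeR adjusted p = 0.209). With both mice included it was -0.28 (SE 0.40), since CTL 124 had 11.8 CPM and CKO 121 had 49.1 CPM, the lowest and the highest of the 17 mice.

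**Figure D3:**
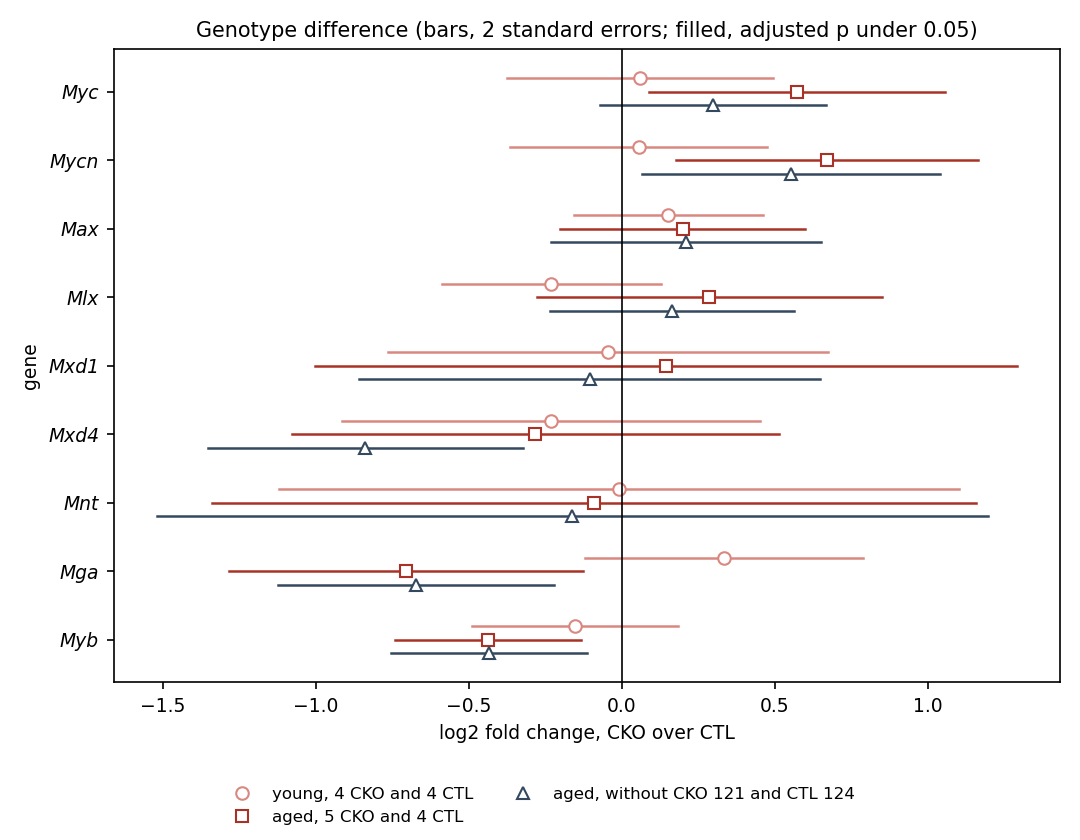
Log2 fold change of CKO over CTL for each gene in young mice, in aged mice, and in aged mice without CKO 121 and CTL 124, with bars of 2 standard errors either side and filled symbols for an adjusted p under 0.05. No symbol is filled, the young values lie between -0.23 and 0.33, and Mxd4 moves from -0.28 to -0.84 when the 2 mice are left out.

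The other 4 members overlapped between genotypes both with and without CKO 121 and CTL 124. Max was 59.6 to 116 CPM in CTL and 96.3 to 114 CPM in CKO mice (log2 fold change 0.20, SE 0.20, edgeR adjusted p = 0.798; 0.21 without CKO 121 and CTL 124). It was 0.04 without CTL 114 and 0.35 without CTL 65. Mlx was 26.1 to 65.0 CPM in CTL and 42.4 to 75.1 CPM in CKO mice, and the lowest mouse of each genotype was again CTL 124 and CKO 121. The log2 difference for Mlx was 0.29 (SE 0.28) with both, 0.17 (SE 0.20) without them and 0.05 without CTL 124 alone. Mxd1, the antagonist induced as myeloid cells differentiate, was 2.80, 21.2, 28.9 and 47.5 CPM in CTL and 17.0 to 43.6 CPM in CKO mice. Its difference was 0.14 with all mice and -0.11 without CKO 121 and CTL 124. Mnt was low throughout, 2.06 to 23.7 CPM in CTL and 4.09 to 23.7 CPM in CKO mice, and its difference of -0.09 had an SE of 0.62, against -0.16 (SE 0.68) without the 2 mice.

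Aged CTL 124 was the lowest of all 17 mice for Myc, Mxd1, Mxd4 and Mlx and the highest for Mga, that is, at an extreme for 5 of 9 genes, where no other mouse was so for more than 2. Its libraries also agreed least with each other. Over all genes their chi-square per degree of freedom was 54.4, against 9.93 to 25.6 in the other 15 mice with 2 libraries, and Mlx had 40 counts in one and 146 in the other, Mxd1 18 and 2. Markers of cycling cells summed to 2366 CPM in this mouse, against 927 to 1563 CPM in the other aged CTL mice. The myeloid markers summed to 565 CPM, against 780 to 1227 CPM, and the HSC markers to 1318 CPM, against 1928 to 2628 CPM. The part of these differences in the levels of the 9 genes was not tested.

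**Figure D4:**
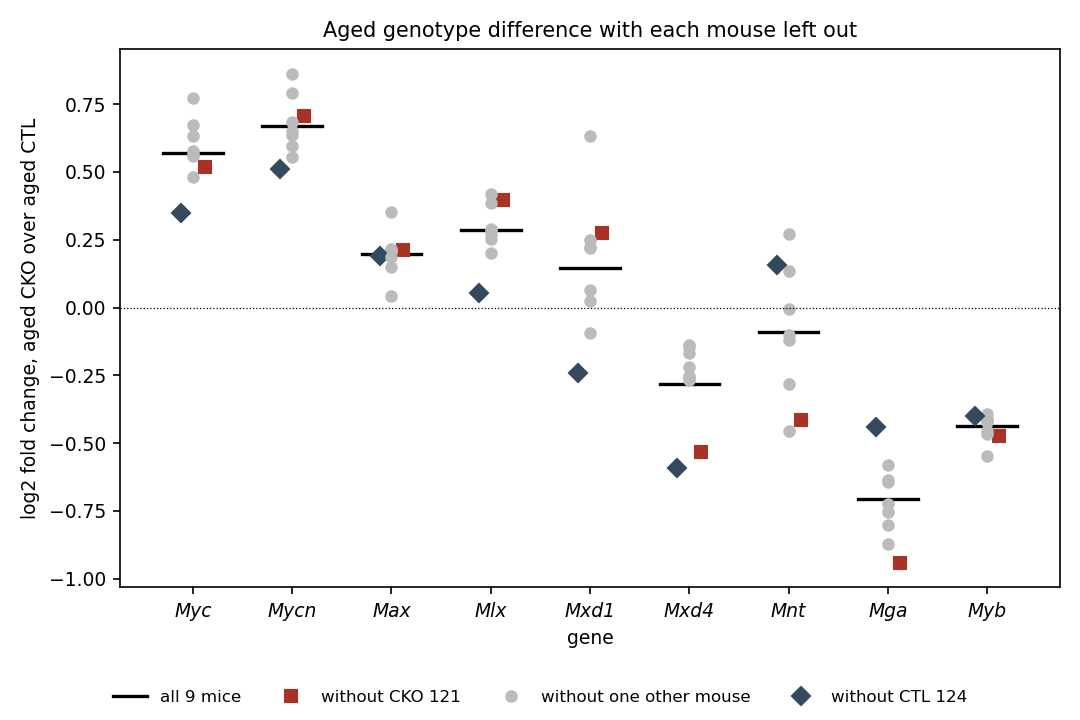
Log2 fold change of aged CKO over aged CTL for each gene with all 9 aged mice (line) and after leaving out each mouse (points), the mice CTL 124 and CKO 121 marked. Leaving out CTL 124 gives the lowest value for Myc, 0.35, and the least negative value for Mga, -0.44, while Myb stays between -0.55 and -0.39.

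Whether the genotype difference itself changed with age was tested in one fit over all 17 mice. None of the 9 genes passed, nor did any of 12352 genes (0%), and DESeq2, limma and the likelihood ratio test over mice also called 0 of 9, with 0, 0 and 4 calls among all genes. Mga alone had an unadjusted p under 0.05, against 4.76% of all genes. Its young difference of 0.33 and aged difference of -0.71 gave an interaction of -1.05 on the log2 scale (SE 0.40, edgeR adjusted p = 0.969). The interaction was 0.62 (SE 0.33) for Mycn, 0.51 (SE 0.35) for Myc and -0.29 (SE 0.23) for Myb. When CKO 121 and CTL 124 were left out, edgeR called 0 of 9 and 15 of 12409 genes (0.121%), and the value for Mga was -0.999 (SE 0.34, adjusted p = 0.490). The interaction for Myc was then 0.24 (SE 0.32), and that for Mxd4 went from -0.05 (SE 0.55) to -0.60 (SE 0.44).

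Between ages, Mlx was lower in aged CTL mice and Mycn was higher in aged CKO mice, and the other members did not pass the test with all mice. The descriptions in the labels carry one code for all young libraries and another for all aged ones. What the code marks is not stated, and it cannot be told apart from age. In CTL mice edgeR called 1825 of 12352 genes (14.8%), and 17.1% of genes had ages that did not overlap. In CKO mice the counts were 2045 of 12352 genes (16.6%) and 20.4%. The median log2 difference of all genes was 0.11 in CTL and 0.07 in CKO mice. Each comparison called 1 of 9, a share below that of all genes.

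In CTL mice the gene called was Mlx, the partner of MondoA. It was 77.2, 88.2, 92.0 and 105 CPM in young CTL mice and 26.1, 50.3, 61.8 and 65.0 CPM in aged CTL mice, with no overlap. It fell by 0.83 on the log2 scale (SE 0.25, edgeR adjusted p = 0.0269), and without CKO 121 and CTL 124 by 0.61 (SE 0.19, edgeR adjusted p = 0.0294). In CKO mice Mlx was 64.9 to 94.7 CPM in young and 42.4 to 75.1 CPM in aged mice (log2 difference -0.32, SE 0.23, edgeR adjusted p = 0.370), and the interaction for Mlx was 0.51 (SE 0.34), which did not pass. The call for Mlx in CTL mice was lost when young CTL 1, young CTL 4 or aged CTL 99 was left out, with log2 differences of -0.85, -0.76 and -0.84 and an edgeR adjusted p of 0.0541, 0.0819 and 0.0536. Psmc3ip, the gene on the other strand, differed by -0.58 (SE 0.36, edgeR adjusted p = 0.293) between the ages in CTL mice.

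In CKO mice the gene called was Mycn. It was 75.0, 79.0, 128 and 137 CPM in young CKO mice and 131, 182, 196, 241 and 266 CPM in aged CKO mice, so that 1 aged mouse lay within the young range. It rose by 0.96 on the log2 scale (SE 0.23, edgeR adjusted p = 0.00800), and the call held whichever mouse was left out, with values from 0.82 to 1.12. In CTL mice Mycn was 84.2 to 110 CPM in young and 87.3 to 179 CPM in aged mice (log2 difference 0.34, SE 0.24, edgeR adjusted p = 0.362). Myc differed by -0.31 (SE 0.26) between the ages in CTL mice and by 0.20 (SE 0.24) in CKO mice, neither passing the test. The value in CTL mice was -0.11 without aged CTL 124.

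Without CKO 121 and CTL 124, edgeR called 2 of 9 between the ages in CTL mice, against 17.6% of 12409 genes, and 3 of 9 in CKO mice, against 18.1%. Mxd1 was called in both, higher in aged mice by 1.12 in CTL (SE 0.37, edgeR adjusted p = 0.0432) and by 1.06 in CKO mice (SE 0.35, edgeR adjusted p = 0.0398). With all mice it was not called, at 0.74 in CTL (SE 0.52, edgeR adjusted p = 0.358) and 0.93 in CKO mice (SE 0.50, edgeR adjusted p = 0.218). The 4 young CTL mice had 12.1 to 16.3 CPM of Mxd1, and the 3 aged CTL mice other than CTL 124 had 21.2, 28.9 and 47.5 CPM. CTL 124 itself had 2.80 CPM, below every young CTL mouse. Mga was called lower in aged CKO mice (log2 difference -0.72, SE 0.23, edgeR adjusted p = 0.0332). With all mice the value for Mga was -0.49 (SE 0.27, edgeR adjusted p = 0.242). Mycn remained called at 0.99 (SE 0.23, edgeR adjusted p = 0.00503). Mnt, the general antagonist of MYC, had the highest fitted differences between ages with all mice, 1.16 (SE 0.63) in CTL and 1.06 (SE 0.61) in CKO mice, and neither passed the test. Max (-0.25 in CTL and -0.21 in CKO mice) and Myb (0.02 and -0.27) did not pass it either.

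**Figure D5:**
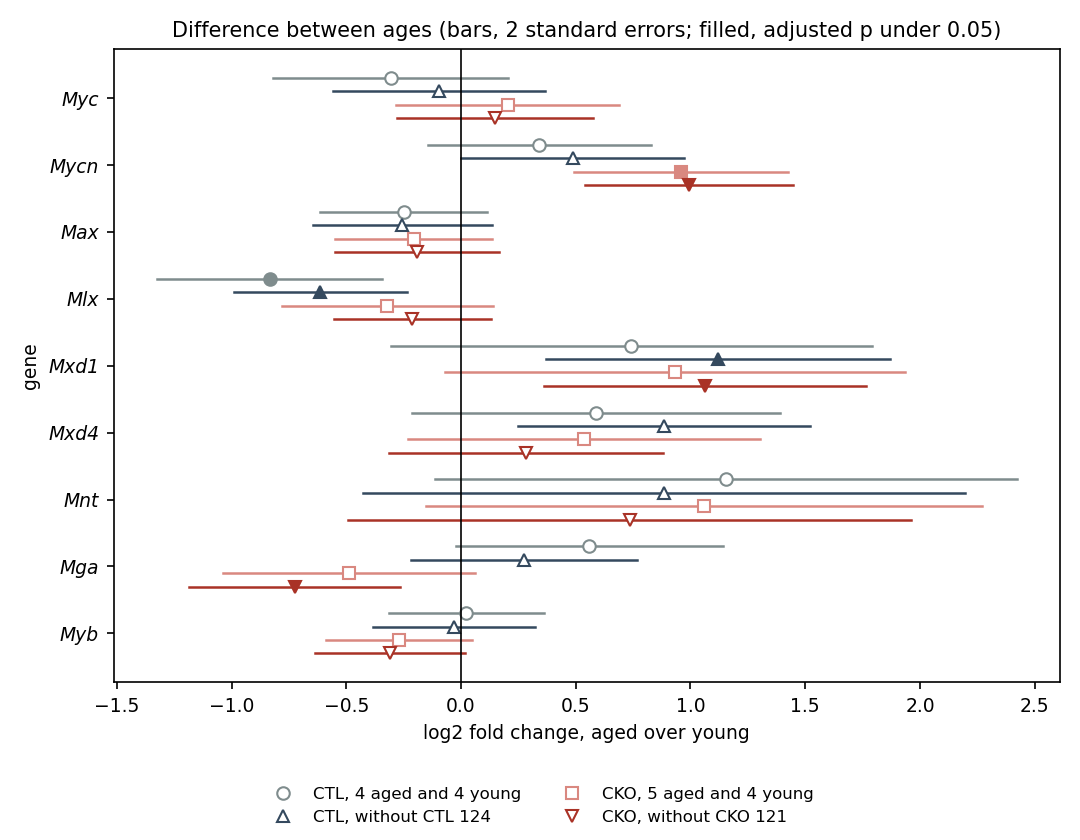
Log2 fold change of aged over young mice for each gene in CTL and in CKO mice, with all mice and without CTL 124 and CKO 121, with bars of 2 standard errors either side and filled symbols for an adjusted p under 0.05. Mlx is filled below 0 in CTL mice (-0.83 and -0.61) and Mycn above 0 in CKO mice (0.96 and 0.99), and Mxd1 is filled only without the 2 mice.

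The remaining genes of the network were read from 9 lists of known partners, cofactors and targets. Of their 112 genes, 109 were in the count table and 105 were tested in young and in aged mice. None was called by edgeR between genotypes in young mice (0 of 105), in aged mice (0 of 105) or for the interaction (0 of 107). At an unadjusted p under 0.05 there were 3 in young mice (2.86%, against 7.06% of all genes), 14 in aged mice (13.3%, against 10.1%) and 4 for the interaction (3.74%, against 4.76%). Leaving out CKO 121 and CTL 124, edgeR also called 0 of 105 in aged mice and 0 of 107 for the interaction.

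Among the other MAX and MLX partners, Mxd3 differed by -0.47 in young (SE 0.24, edgeR adjusted p = 0.729) and -0.47 in aged mice (SE 0.30, edgeR adjusted p = 0.634), the latter -0.08 without CKO 121 and CTL 124, and Mlxip, which encodes MondoA, by -0.08 and -0.59 (-0.58 without the 2 mice). The MYB relative Mybl2, a cell cycle gene, differed by -0.38 in young mice (SE 0.44) and by 0.22 in aged mice (SE 0.48), or 0.01 without the 2 mice. Sin3a and Sin3b, the scaffolds through which MXD proteins and MNT repress, differed by 0.20 and -0.15 in young mice and by 0.24 and 0.25 in aged mice (0.25 and 0.16 without the 2 mice). Of the PRC1.6 partners of MGA, Ring1 differed by 0.63 (SE 0.50, with no overlap) and Cbx3 by -0.15 (SE 0.20) in young mice, and by 0.51 and -0.25 in aged mice (0.42 and -0.10 without the 2 mice). All of these missed the threshold.

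Among the coactivators, the MYC cofactors Wdr5 and Ruvbl2 differed by -0.36 and -0.25 in young mice and by 0.04 and 0.46 in aged mice, or 0.24 and 0.48 without CKO 121 and CTL 124. Of the 10 coactivators, 5 were higher and 5 lower in aged CKO mice. The 4 with an unadjusted p under 0.05 were Ruvbl2 and, chosen after their values were seen, Trrap (-0.68), Hcfc1 (-0.78) and Ep400 (-0.57), the last 3 lower (-0.65, -0.35 and -0.51 without the 2 mice). Ep300, which encodes the p300 acetyltransferase that MYB recruits, differed by -0.63 in young mice (SE 0.30, edgeR adjusted p = 0.715) and by -1.23 in aged mice (SE 0.23, edgeR adjusted p = 0.205), and in aged mice every CKO value lay below every CTL value. Without CKO 121 and CTL 124 the difference for Ep300 was -1.01 (SE 0.21, edgeR adjusted p = 0.0753). Men1, the menin gene, differed by 0.50 and 0.38, the latter 0.53 without the 2 mice. Of the 6 MYB coactivators and cofactors, Men1 was the 1 higher in aged CKO mice, and 5 were lower (list median -0.51). Kmt2a, chosen after its value was seen, differed by -0.97 in aged mice (SE 0.29, edgeR adjusted p = 0.329), or -0.98 without the 2 mice. Of the genes for MYC turnover, Skp2, an F-box protein, differed by -0.91 in young mice (SE 0.40) and by 0.57 in aged mice (SE 0.29), with no overlap at either age and an interaction of 1.47 (SE 0.52, edgeR adjusted p = 0.942). Its aged difference was 0.64 without CKO 121 and CTL 124. Fbxw7, the F-box protein that targets phosphorylated MYC for degradation, differed by -0.66 in young and -0.16 in aged mice, and by 0.08 in aged mice without the 2. None of these passed the threshold either.

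The 58 MYC target genes, many of them of ribosome biogenesis, held no gene called between genotypes. In young mice 25 were higher and 33 lower in CKO, with a median log2 fold change of -0.0087, against -0.00093 for all genes. In aged mice 36 were higher and 22 lower, with a median of 0.07 against -0.0033 for all genes. Without CKO 121 and CTL 124, 39 were higher and 19 lower, with a median of 0.12. Slc19a1, the reduced folate carrier, was higher in CKO by 0.45 in young mice (SE 0.20, edgeR adjusted p = 0.674) and by 1.01 in aged mice (SE 0.22, edgeR adjusted p = 0.281), the latter with no overlap and 0.89 without CKO 121 and CTL 124 (edgeR adjusted p = 0.136). Tfrc, the transferrin receptor, differed by -0.56 at both ages, and in aged mice by -0.16 without CKO 121 and CTL 124. Of the 7 MYB targets tested, one of them Myc itself, Mpo differed by -1.49 in young and -3.31 in aged mice. Mean Mpo levels were 10.6 and 26.8 CPM in young and aged CTL mice, and 3.69 and 2.63 CPM in CKO mice. The detection floor reached 1.24 CPM in a mouse. Bcl2, an inhibitor of apoptosis, differed by 0.37 and 0.33. Without the 2 mice the aged differences were -4.13 for Mpo and 0.64 for Bcl2. No MYB target was called either. Mpo is also one of the 5 myeloid markers tested, of which the other 4 were higher in aged CKO mice without passing the test (list median 0.56), Prtn3 among them at 407 against 271 CPM. Without CKO 121 and CTL 124, 3 of the 5 were higher and 2 lower (list median 0.49).

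Between ages, 28 of the 107 tested genes of the network were called in CTL mice (26.2%, against 14.8% of all genes) and 26 in CKO mice (24.3%, against 16.6%), in both directions. In CTL mice 16 were higher and 12 lower in aged mice, and in CKO mice 12 were higher and 14 lower. The balance in CTL mice turned without CKO 121 and CTL 124, with 9 higher and 16 lower (23.4%, against 17.6% of all genes), and in CKO mice it was 12 and 17 (27.1%, against 18.1%). Of the 58 MYC targets, 6 rose and 9 fell in CTL mice and 4 rose and 11 fell in CKO mice. With CKO 121 and CTL 124 left out it was 2 and 12 in CTL mice and 5 and 11 in CKO mice. Of the network genes named above, those called were Sin3b (-0.63), Ep300 (1.02), Bcl2 (0.82), Trrap (0.94), Hcfc1 (1.02) and Ep400 (0.81) in CTL mice, and Wdr5 (0.72), Ruvbl2 (0.52), Fbxw7 (1.08) and Bcl2 (0.77) in CKO mice. Without CKO 121 and CTL 124 the calls in CTL mice for Bcl2 (0.60, edgeR adjusted p = 0.0965), Hcfc1 (0.58, edgeR adjusted p = 0.129) and Ep400 (0.62, edgeR adjusted p = 0.0994) and the call for Ruvbl2 in CKO mice (0.53, edgeR adjusted p = 0.0554) were lost, and Cbx3 was called lower in both (-0.81 and -0.74). The share called is a description of lists that were chosen by name.

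Markers of other cells were read beside these genes. The 6 megakaryocyte markers summed to between 513 and 872 CPM in young CTL and between 1005 and 3147 CPM in young CKO mice, and to between 390 and 612 CPM in aged CTL and between 568 and 2085 CPM in aged CKO mice. Pf4 was called higher in young CKO mice (1.80, edgeR adjusted p = 0.0488), none of the 6 was called in aged mice, and Pf4 (2.24) and Itga2b (1.83) were called in aged mice without CKO 121 and CTL 124. Markers of cycling cells were lower in CKO for 8 of 8 genes in young mice (median log2 difference -0.42, none called, edgeR adjusted p of at least 0.339) and for 3 of 8 in aged mice, or 1 of 8 without CKO 121 and CTL 124 (median 0.02 and 0.30). Reads of Y-linked genes above 1 count were found in 3 of 4 young CTL, 1 of 4 young CKO, 1 of 4 aged CTL and 1 of 5 aged CKO mice, so sex was not balanced in young mice. Cd48, a marker the sort excludes, was 68.0 and 102 CPM in young CTL and CKO mice and 11.85 and 12.35 CPM in aged ones, as means of groups. Of the other progenitor markers, Flt3 was 31.9 and 25.3 CPM in young and 46.7 and 17.8 CPM in aged CTL and CKO mice, and Cd34 was 401 and 467 CPM in young and 278.5 and 294.5 CPM in aged ones. The part of these markers in the results for the 9 genes was not tested. A fit with the Y-linked level as a covariate called 0 of 9 between genotypes at either age. The fit without it also called 0 of 9, so these counts cannot show whether sex played a part. With the covariate, differences in young mice changed sign for Myb (-0.15 to 0.074), Mnt (-0.0097 to 0.29) and Mxd1 (-0.04 to 0.0037). In aged mice Mnt went from -0.09 to 0.088.

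Over the mice themselves, some genes followed Myc and Myb closely. Likeness was taken as the lower of Pearson's r of log2 CPM over the 8 young mice and over the 9 aged mice, among 11386 genes. For Myc the 3 most alike were Cpne2 (0.905), Hdac3 (0.903) and Vps11 (0.896), and for Myb they were Sms (0.855), Trim28 (0.831) and Vopp1 (0.820). These are descriptions over mice that share genotype and, for aged Myc, include the low mouse CTL 124. Over the 7 aged mice other than CKO 121 and CTL 124, r was 0.656 for Cpne2, 0.497 for Vps11 and 0.968 for Hdac3, and it was 0.931, 0.822 and 0.882 for Sms, Trim28 and Vopp1. Within the network, Mycn had the highest likeness to Myc (0.596, rank 342), although r over the 7 aged mice was 0.140. Mga ran opposite to Myc at both ages (r of -0.723 in young and -0.676 in aged mice, -0.650 without the 2 mice).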

How the data were processed

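The authors sorted 100 HSCs per library, aligned SMART-Seq2 reads to GRCm38 (mm10) with HISAT2, assigned them to genes with Rsubread and deposited raw counts for each gene and library, not normalized. The annotation, the use of strand and the rule for reads matching several genes are not given in the sources used here. Here, counts were summed per mouse (33 libraries, 17 mice; n = 4, 4, 4 and 5) and tested in R 4.3.3 with edgeR 4.0.16: filterByExpr (minimum count 10, minimum total count 15), TMM scaling and quasi-likelihood tests. P-values were adjusted by Benjamini-Hochberg over all genes tested, at 0.05. A standard error is the absolute fitted difference over the root of its F statistic. Each age had its own fit, and the contrasts between ages and the interaction came from one fit over all 17 mice. Levels are TMM-scaled CPM. Levels between genes were divided by the union of GENCODE M21 exons, since the RefSeq table held the span of a gene and not its exon length. The methods were tested on simulated data. The genes named are the 9 members, Ythdf2, the 3 genes most like Myc and Myb, and, in each list of other network genes, those with an adjusted p under 0.05 between genotypes or, where there was none, the 2 with the smallest p in young mice. Psmc3ip is named for its overlap with Mlx, and single marker genes and any other gene were chosen after their values were seen. The members and lists were chosen with earlier results of these data known. Mice were taken as separate animals from the labels. Alternatives were DESeq2 1.42.0, its size factors, limma 3.58.1 (voom, mouse as random effect), likelihood ratio tests over mice or libraries, other filters, a Y-linked covariate, a replicate block, one fit over all mice, each mouse left out, and CKO 121 and CTL 124 left out, which for the likeness of genes and for the other genes of the network between ages and in the interaction was chosen after seeing the data.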

Additional observations from a re-analysis of the deposited data

Results flagged for a closer look

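For each of the 9 genes and Ythdf2, the values of each group were examined for a mouse far from the others, which gave 40 groups, of which about 2 would be marked by chance at a rate of about 5%. In all, 3 of 40 were marked, each in aged CKO mice. Ythdf2 was 188 CPM in CKO 121, against 87.8 CPM in the next mouse, which goes against the label of that mouse. Mxd4 was 49.1 CPM in CKO 121, against 28.2 CPM in the next mouse. Max was 114 CPM in CKO 78 (114.5 CPM before rounding), against 99.5 CPM in the next mouse.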

How the results depend on the processing

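Of the 99 values of the 9 genes under other tools, filters, scalings and covariates, 94 kept their direction in young mice and 96 in aged mice, as did 85 of 90 for the interaction, 88 of 90 between ages in CTL mice and 90 of 90 in CKO mice. With limma, Mnt was 0.14 in young and 0.15 in aged mice and 0.028 for the interaction, Mxd4 was 0.24 for the interaction, and Mxd1 was -0.15 between ages in CTL mice. With the Y-linked covariate, Mxd1 (0.0037), Mnt (0.29) and Myb (0.074) turned in young mice, Mnt (0.088) in aged mice, and Mxd4 (0.019) and Mnt (0.065) for the interaction. Without CKO 121 and CTL 124, Mxd1 turned in aged mice (-0.11) and for the interaction (-0.056), and Myb between ages in CTL mice (-0.031). The likelihood ratio test over libraries called 3 of 9 genes in aged mice and 2 of 9 between ages in CTL mice, against 2593 of 11737 genes in the latter, the second gene being Mnt (1.30, edgeR adjusted p = 0.0407). Leaving out CKO 121 and CTL 124, 2 of 9 were called between ages in CTL and 3 of 9 in CKO mice. The cause was not tested.

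With each mouse left out in turn, 0 to 1 of 9 genes were called between ages in CTL mice. Values that changed sign ran, in young mice, from -0.21 to 0.22 for Myc, from -0.11 to 0.19 for Mycn, from -0.31 to 0.12 for Mxd1 and from -0.26 to 0.41 for Mnt. In aged mice they ran from -0.24 to 0.63 for Mxd1 and from -0.45 to 0.27 for Mnt. For the interaction they ran from -0.11 to 0.20 for Max, from -0.18 to 0.68 for Mxd1, from -0.35 to 0.18 for Mxd4 and from -0.52 to 0.26 for Mnt, and between ages in CTL mice from -0.077 to 0.12 for Myb.

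Among all genes, the 20 calls in young mice became 88 with DESeq2, 90 and 67 with the likelihood ratio test over libraries and over mice, 10 with the Y-linked covariate, 1 in the fit over all 17 mice and 0 to 18 with a mouse left out. The 0 calls in aged mice became 112, 420 and 76 with those 3 tests, 5 in the fit over all mice, 40 without CKO 121 and CTL 124, and 0 to 16 with a mouse left out. The 0 calls for the interaction became 3 and 4 with the 2 likelihood ratio tests, 15 without those mice, and 0 to 2 with a mouse left out. Between ages, calls ran from 896 to 2048 in CTL and from 1183 to 2655 in CKO mice with a mouse left out, and the test over libraries gave 3112 in CKO mice. limma moved the median of all genes between ages in CTL mice from 0.11 to -0.03, with 602 higher and 1137 lower calls against 828 and 997. Mlx and Mycn kept their calls under it.

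Young mice of both genotypes share numbers, which the labels do not tie to a litter or day, and same-numbered mice did not deviate together (r of 0.049, -0.019, 0.038 and 0.0063, mice 2 and 4 correlating best with another number). A replicate block on these numbers gave 14 calls among all genes and 0 of 9, with Mnt at 0.12. A block on the library letter, with libraries as replicates, gave 50 calls in young and 40 in aged mice among all genes, and left the number of members called as it was.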
